A study of Oryzias latipes with 7 samples.

Results

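Medaka (Oryzias latipes) is a small teleost fish that spawns daily. Follicles from its ovary about to be spawned, at 2 h before spawning, were compared with follicles late in vitellogenesis, at 47, 35 and 32 h. These are 4 of the 7 arrays of the series, chosen by the developmental stage in their labels, and the arrays at 23, 14 and 8 h served to follow what happened in between. Each array held the RNA of 100 pooled follicles, the largest and second-largest of the ovaries, from fish kept at 27 °C with 14 h of light and 10 h of dark. No treatment or genotype other than time set the groups apart. With 1 array for each time, no difference below has a replicate check, and none carries a p-value.

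A follicle consists of the oocyte and of the granulosa and theca cells around it. During vitellogenesis the oocyte takes up yolk proteins made in the liver while granulosa cells make oestrogen. A surge of luteinizing hormone then turns the follicle cells to making the steroid that drives the oocyte through meiotic maturation, and at ovulation the follicle wall opens and the egg leaves the follicle cells behind. In RNA of whole follicles, fewer cells of a type and less RNA per cell cannot be told apart.

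Each array gave an RMA intensity, the authors' summary of the probes of a probe set, for 63698 probe sets. Those with a mean log2 intensity over the 7 arrays above the 25th percentile (6.24) were kept, which left 47773. The median intensity over all probe sets was 703, 653 and 643 in the 47, 35 and 32 h arrays and 685 in the 2 h array. The log2 median at 2 h therefore differed by -0.04 from that at 47 h, 0.07 from 35 h and 0.09 from 32 h. The probe set identifiers match no entry of the gene table used here (0 of 63698). Genes, positions, sequences and cell type markers are therefore not given, and the cell types in the follicles could not be checked by their markers. Several probe sets may report the same gene, so a count of probe sets is not a count of genes.

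The time of the 2 h array differs between the deposited sources. Times are those of the file deposited for each sample, but the series table places the same values under 23 h, and its 2 h column holds the array filed under 35 h. There only 47 h and 8 h hold the array filed under the same time. One label of the 2 h sample also gives 5 h. With the table's times only 160 probe sets were gained and 139 lost by the rules below, against 1575 and 1142 when the per-array files give the times. Every result that follows rests on the per-array files. The array numbers form a 6-digit series (47, 23, 14 and 2 h) and an 8-digit series (35, 32 and 8 h), so that 47 h is the early array that shares the series of the 2 h array. The time of day also differed, because 2 h before spawning lies 3, 9 and 6 clock hours from the times of the 47, 35 and 32 h arrays. Stage and time of day cannot be told apart here.

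Follicles at 2 h differed from all 3 late vitellogenic arrays in a small part of the probe sets, in both directions. A probe set was called gained where its 2 h value lay at least 4-fold (2 on the log2 scale) above the highest of the 47, 35 and 32 h arrays, and lost where it lay at least 4-fold below the lowest. Of 47773 probe sets, 1575 were gained (3.3%) and 1142 were lost (2.39%), together 2717 (5.69%). The gained probe sets stood a median 8.21-fold above the highest early array, and the lost ones a median 6.74-fold below the lowest. By contrast 40023 probe sets (83.8%) lay within 2-fold of the early range at 2 h, and 34445 (72.1%) did so at 23, 14, 8 and 2 h alike. The 4-fold limit does not fall at a break in the distribution. Between 1.9 and 2 on the log2 scale lay 118 probe sets in the upward and 112 in the downward direction, and between 2 and 2.1 lay 121 and 106.

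The early arrays gave the nearest measure of spread. The 47 h array lay at least 4-fold above both the 35 h and the 32 h array in 87 probe sets (0.182%) and below both in 133 (0.278%). Against the same pair the 2 h array was higher in 1886 (3.95%) and lower in 1382 (2.89%), together 14.9 times as many. The 35 h array stood apart from the other two early arrays in 71 probe sets above (0.149%) and 38 below (0.0795%), where the 2 h array was higher in 1769 (3.7%) and lower in 1447 (3.03%). The 32 h array did so in 77 above (0.161%) and 29 below (0.0607%), where the 2 h array was higher in 1717 (3.59%) and lower in 1324 (2.77%). The early arrays are different stages and not replicates, so these counts hold both stage and array spread. The 3 early arrays themselves spanned at least 4-fold in 1141 probe sets (2.39%), which can be gained or lost only past that span. Against the 47 h array alone, which has the array-number series of the 2 h array, 2272 probe sets were at least 4-fold higher at 2 h (4.76%) and 2222 lower (4.65%). Against 35 h alone the counts were 2293 (4.8%) and 1902 (3.98%), and against 32 h alone 2364 (4.95%) and 2005 (4.2%).

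More probe sets lay outside the early range at each later array. At 23 h, 481 lay at least 4-fold above (1.01%) and 306 at least 4-fold below (0.641%). The counts were 1009 (2.11%) and 653 (1.37%) at 14 h, and 1285 (2.69%) and 975 (2.04%) at 8 h. The 2 h array had the most in both directions. All 4 comparisons share the 3 early arrays and are not independent of one another.

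As a ratio, the lead of the 2 h array over the 8 h array was wider among large losses than among large gains. At an 8-fold limit 808 of the 47773 kept probe sets were gained (1.69%) and 438 lost (0.917%). At a 16-fold limit the counts were 450 (0.942%) and 205 (0.429%). At a 32-fold limit 94 probe sets were lost at 2 h (0.197%), while 40 lay as far below the early arrays at 8 h and 33 at 14 h. Upward, 243 were gained by 32-fold at 2 h (0.509%), against 199 at 8 h and 139 at 14 h. At a 64-fold limit 138 were gained (0.289%) and 38 lost (0.0795%). A 256-fold difference was reached by 29 gained probe sets (0.0607%) and 1 lost one (0.00209%). Such large folds rest on low values. The highest early value was at or below the filter threshold in 77 of the 138, and the 2 h value in 25 of the 38.

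**Figure D1:**
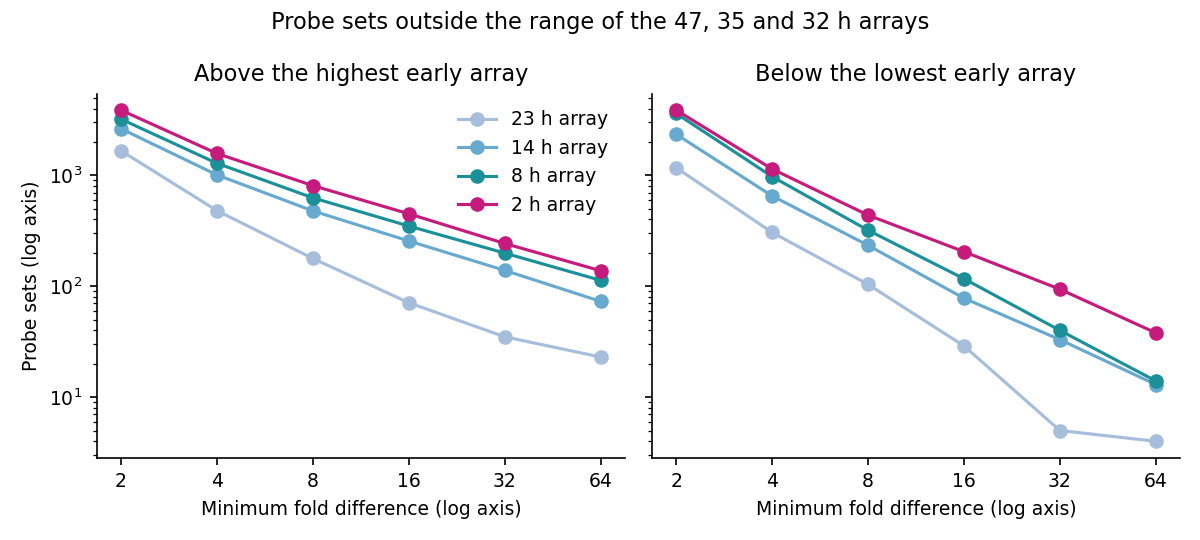
Number of probe sets (log axis) at least a given fold (log axis) above the highest or below the lowest of the 47, 35 and 32 h arrays, with 1 line for each of the 23, 14, 8 and 2 h arrays. The 2 h line is the highest in both panels, from 3871 above and 3879 below at 2-fold to 138 and 38 at 64-fold, and on the log axis its distance from the 8 h line is wider for 64-fold losses than for 64-fold gains.

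Whether gains outnumbered losses depended on which probe sets were counted. Gained probe sets made up 58% of those gained or lost at the 4-fold limit. At a 2-fold limit the counts were 3871 gained (8.1%) and 3879 lost (8.12%). With the filter at the 50th percentile they were 676 and 678. Of the 1575 gained, 331 had an early mean at or below the filter threshold and were kept only through their later arrays. A filter on the early arrays alone, added after the data were seen, gave 1244 gained and 1169 lost.

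Gained and lost probe sets started from different levels. When the kept probe sets were split into 4 equal bins by their median early intensity, 8.22% of the lowest bin (intensity up to 395) were gained, 3.4% of the second, 1.35% of the third and 0.218% of the highest (from 4800 upward). Losses took 1.16% of the lowest bin and 2.8%, 2.79% and 2.81% of the others. A probe set near the lower end of the scale cannot lose 4-fold and one near the upper end cannot gain 4-fold, so part of this pattern is set by the scale. The filter also adds to it, since 331 of the 982 gained in the lowest bin had an early mean at or below the threshold. Among the probe sets of that bin with an early mean above it, 5.99% were gained. At 2 h, 343 of the 1142 lost probe sets (30%) had a value at or below the filter threshold. The 2 identifier series of the array design held both kinds. Among identifiers beginning K_OLAT0000, 4.05% were gained and 3.09% lost, and among those beginning OLAT0001, 2.88% and 2%.

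In the summed intensity of the kept probe sets, the gained ones went from a minor share to a visible one. They held 0.559%, 0.583% and 0.57% in the 47, 35 and 32 h arrays. The share was 1.18%, 1.77% and 3.52% in the 23, 14 and 8 h arrays and 6.63% in the 2 h array. The lost ones held 3.16%, 2.69% and 2.99% in the early arrays, 2.79%, 2.4% and 1.58% in the 3 arrays between, and 0.293% at 2 h. The ends of both series follow from how the probe sets were chosen, and the 23, 14 and 8 h values entered through the filter on the mean of 7 arrays. Intensity is not a molar amount, since probes bind with different strength.

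**Figure D2:**
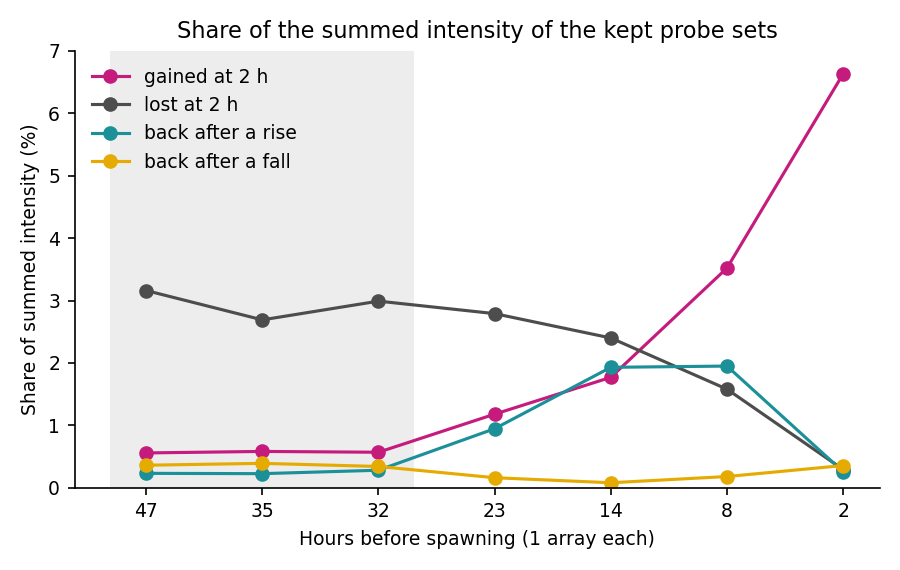
Share of the summed intensity of the 47773 kept probe sets (%) held by the gained, lost and returning probe sets in each array, by hours before spawning, with the 3 early arrays shaded. Gained probe sets reach 6.63% at 2 h, while the probe sets back after a rise hold 1.93% and 1.95% at 14 and 8 h and 0.258% at 2 h.

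Of the 300 probe sets with the highest early mean, 279 (93%) lay within 2-fold of their early range at 2 h, where 83.8% of all kept probe sets did. Of the same 300, 7 (2.33%) were lost, close to the 2.39% of all kept, and 0 were gained, near the upper end of the scale. In the ranking of each array, 243, 267 and 260 of them were among the 300 highest at 47, 35 and 32 h, arrays that also defined the list. At 2 h 169 were, after 209, 191 and 184 in the 23, 14 and 8 h arrays. Among the 300 highest at 2 h, 36 were gained probe sets, 14 of them not yet gained at 23, 14 or 8 h and 7 gained at all of these times. The 2 h value chose this list and also defines a gain, so the count is a description and is not set against the 3.3% of all kept. In the early ranking 31 of the 300 stood below place 10000.

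Most gains appeared only in the last array, and a smaller share of losses did. Of the 1575 gained probe sets, 1003 (2.1% of all kept) were not 4-fold above the early arrays at 23, 14 or 8 h. Of the 1142 lost, 547 (1.14% of all kept) were not yet 4-fold below. First appearance at 2 h thus accounted for 63.7% of gains and 47.9% of losses. The share was higher for gains under each alternative run, with the closest values at the 50th percentile filter (59.2% and 56.8%). At 8 h, 760 of the 1285 rises and 637 of the 975 falls had not been seen at 23 or 14 h. A large share of changes first seen in the array itself was therefore not particular to 2 h.

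By definition, these late gains were under 4-fold above the early arrays at 23, 14 and 8 h and at least 4-fold above at 2 h. A small change before 2 h and a large one at 2 h are thus partly set by the rule, as for the late losses. Within that limit, the median level of the late gains hardly differed from the early arrays until 8 h. Their median intensity was 301, 305 and 285 in the 47, 35 and 32 h arrays, then 301, 292 and 426 in the 23, 14 and 8 h arrays, and 3770 at 2 h. Of the 1003, 731 were at least 4-fold higher at 2 h than at 8 h. In the others the 8 h value lay above the early range by under 4-fold, which follows from the rule. The late losses had a median intensity of 2973, 2130 and 2859 in the early arrays. It was 2984, 2275 and 1434 in the 23, 14 and 8 h arrays and 238 at 2 h, so that the 8 h median was below those of the early arrays. Of the 547 late losses, only 262 were at least 4-fold lower at 2 h than at 8 h. The others lay below the early range at 8 h by under 4-fold, which again follows from the rule. The 8 h array had the lowest median intensity of all arrays (599) and belongs to the other array-number series than the 2 h array. The medians separated fully by array-number series. They were 653, 643 and 599 in the 35, 32 and 8 h arrays, against 703, 698, 682 and 685 in the 47, 23, 14 and 2 h arrays. Whether the array-number series or the stage set these medians was not tested. Centring each array on its median gave 60.7% and 50.5% in place of 63.7% and 47.9%.

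Another group of gains began earlier. A rise that was present at 8 h and 2 h only was found in 319 of the 47773 kept probe sets, or 20.3% of those gained. Their median intensity was 147 at both 23 and 14 h, 3749 at 8 h and 5435 at 2 h. A further 76 were gained from 14 h onward, with medians of 441, 2671 and 5498 in the 23, 14 and 8 h arrays and 5873 in the 2 h array. In both groups the 2 h median lay within 2-fold of the 8 h median.

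Probe sets that were high throughout numbered 107 (0.224% of all kept), 4-fold above the early arrays at 23, 14, 8 and 2 h. Their median intensity was 165, 182 and 157 in the early arrays. It was 3820, 8540 and 13746 in the 23, 14 and 8 h arrays and 6031 in the 2 h array, so their median level was lower at 2 h than at 14 and 8 h. Across all 1575 gained probe sets 2 h was the highest of the 7 arrays in 1305 (82.9%), and 43 were at least 4-fold lower at 2 h than at 8 h.

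Losses followed the same range of courses. From 8 h onward 242 of the 47773 kept probe sets were lost, or 21.2% of all lost ones. Their median intensities were 1221, 178 and 132 in the 14, 8 and 2 h arrays. From 14 h onward 105 were lost, with medians of 827, 187 and 120 in the 23, 14 and 8 h arrays and 102 at 2 h. From 23 h onward 103 were lost (0.216% of all kept), with medians of 150, 83, 101 and 80 in the 4 later arrays. In each of these groups the median was within 2-fold of its 2 h level in the first array in which the loss was seen. These medians lay close to the filter threshold, an intensity of 75.8, so a further fall could hardly be seen. Of the 103, 49 (47.6%) had a 2 h value at or below it. Of all 1142 lost probe sets 867 (75.9%) were lowest at 2 h.

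**Figure D3:**
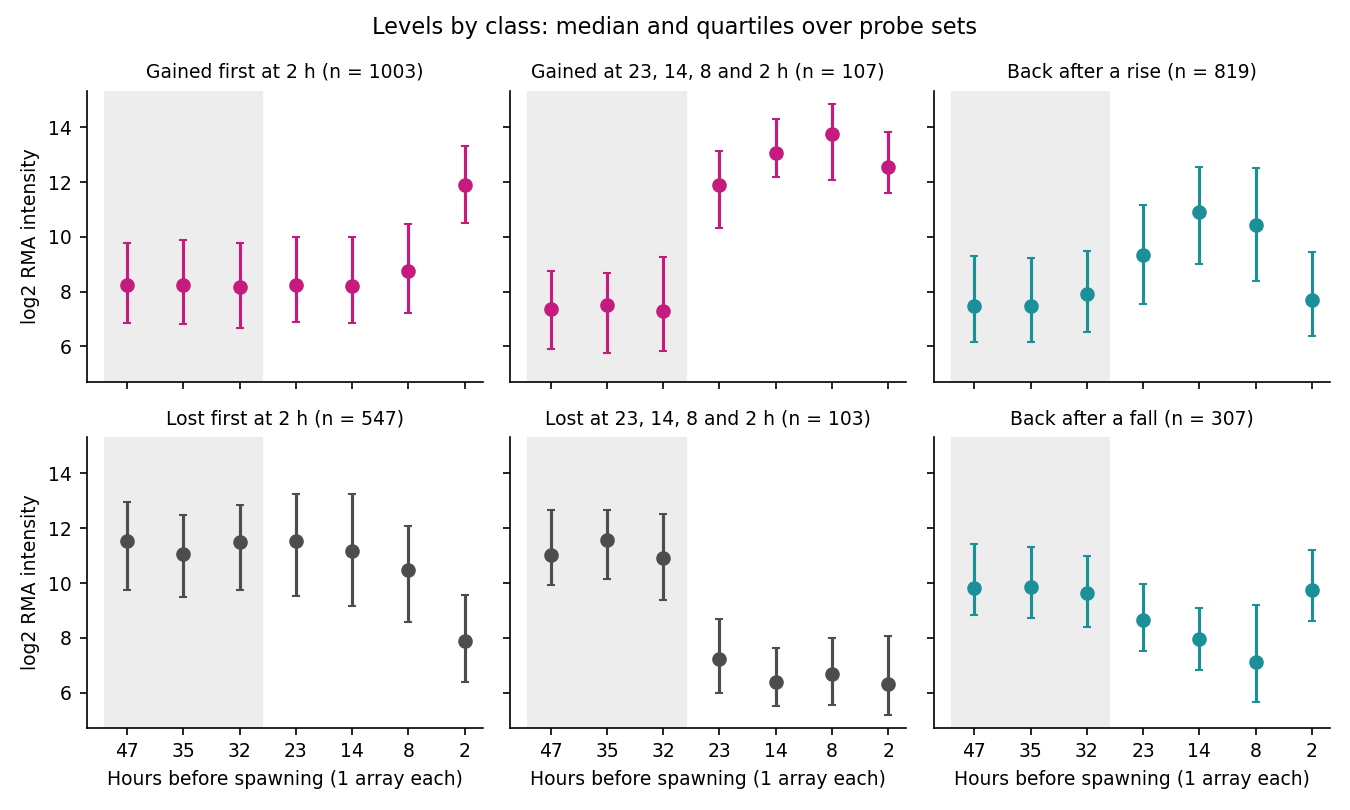
Median log2 RMA intensity of each class in each array, with bars from the lower to the upper quartile over probe sets (not an error of a mean), by hours before spawning, and the early arrays shaded. Probe sets gained first at 2 h have a median of 8.73 at 8 h and 11.88 at 2 h, and those back after a rise have 10.89 at 14 h and 7.70 at 2 h.

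Many changes of the intervening hours were undone by 2 h. A probe set counted as back after a rise where it had been at least 4-fold above all early arrays at 23, 14 or 8 h, was at least 4-fold lower at 2 h than at that peak, and lay within 2-fold of the early range at 2 h. This held for 819 probe sets (1.71%). The mirror definition, back after a fall, held for 307 (0.643%), and 6 probe sets met both. Of the 819, 196 (23.9%) had an early mean at or below the filter threshold and were kept only through later arrays. The 2 h value was at or below that threshold in 186 of the 819 (22.7%). Neither held for any of the 307. A filter on the early arrays alone gave 623 back after a rise and 311 back after a fall. Many of these changes were seen in 1 array only. Of the 819, 228 had passed the limit at 8 h alone, 219 at 14 h alone and 48 at 23 h alone. Of the 307, the counts were 148, 54 and 16. A change seen in 1 unreplicated array has no check on whether it was a course in time. Gained, lost and returned probe sets together numbered 3837 (8.03%). At 2 h 347 of the 819 (42.4%) and 119 of the 307 (38.8%) lay inside the range spanned by the 3 early arrays, a share of 35.4% among all kept probe sets within 2-fold of that range and of 29.6% among all kept.

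The returning rises peaked mostly at 14 h and 8 h. Their median peak stood 11.5-fold above the early median, and their level at 2 h a median 11.6-fold below the peak. The definition sets a minimum to the rise and holds 2 h near the early range. These folds and the 2 h median below are thus partly set by it. Of the 819 peaks, 415 (50.7%) came at 14 h, 323 (39.4%) at 8 h and 81 (9.89%) at 23 h. Median intensity went from 176, 177 and 240 in the early arrays through 642, 1896 and 1396 in the 23, 14 and 8 h arrays to 208 in the 2 h array. The 2 h value was above the early range in 270 and below it in 202. In 535 of the 819 (65.3%) the level was at least 4-fold lower at 2 h than at 8 h. For the 323 that peaked at 8 h this is set by the definition of a return, so the share is not a result on timing. The 8 h and 2 h arrays are single arrays of different array-number series. Without the 8 h array 580 probe sets counted as back after a rise.

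The returning falls reached their lowest level later. Of the 307 troughs, 175 (57%) came at 8 h, 105 (34.2%) at 14 h and 27 (8.79%) at 23 h. The trough stood a median 8.55-fold below the early median, and the level at 2 h was a median 8.18-fold above the trough. These folds and the 2 h median below are likewise partly set by the definition of a return. Median intensity was 906, 933 and 787 in the early arrays, 397, 247 and 139 in the 3 arrays between and 847 in the 2 h array. In 218 of the 307 (71%) the level was at least 4-fold higher at 2 h than at 8 h. For the 175 with their trough at 8 h this is set by the definition of a return. A trough at 8 h alone was seen in 148. The 8 h array had the lowest median intensity of all arrays (599). The 35 and 32 h arrays, of the same array-number series, had the next lowest (653 and 643). Centring each array on its median gave 267 back after a fall. Whether the later timing of the troughs remained after centring was not tested. Without the 8 h array only 153 probe sets counted as back after a fall, and with an offset of 64 before the logarithm, which damps low values, 139 did.

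Taken over 23, 14 and 8 h together, rises were more often undone than kept at the 4-fold limit, and falls more often kept than undone. At 23, 14 or 8 h, 1856 probe sets (3.89%) had been at least 4-fold above the early arrays. At 2 h 572 of them (30.8%) were still 4-fold above, 247 were between 2- and 4-fold above, 819 (44.1%) were back, 20 were 4-fold below the early arrays, and 198 fell into none of these. Of the 1361 that had been at least 4-fold below (2.85%), 595 (43.7%) were still 4-fold below, 286 between 2- and 4-fold below, 307 (22.6%) back, 19 were 4-fold above, and 154 fell into none of these. Kept here leaves out changes still between 2- and 4-fold, and the order for rises rests on leaving out those 247. For rises the order also depended on the time. Of the 1285 rises seen at 8 h, 39.5% were kept and 36.7% back. For the 1009 at 14 h the shares were 23.8% and 53.3%, and for the 481 at 23 h 28.9% and 51.8%. Falls were more often kept at each of these times. The order of kept and undone rises over all times turned at a 2-fold limit (31.4% kept, 29.8% back). A return there still needed a 4-fold drop from the peak. A rise of 2- to 4-fold was thus back only if 2 h lay below the highest early array. That turn is partly set by the rule, as is the share of falls back at that limit. The order of rises also turned with the median of the early arrays as reference (32.2% and 31.6%). It turned as well where a return had to lie strictly inside the early range (30.8% and 18.7%). With no minimum size of the return the order held (30.8% kept, 51.6% back). It held in the 6-digit arrays alone, where the 8 h array is left out and 47 h is the only early array, at 30.1% kept and 34.1% back. Falls were more often kept under every alternative that took its times from the per-array files. With the series table's times 6.97% of falls were kept and 48.4% were back, and for rises 4.46% and 72%.

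Falls that had been present at more times were more often still there at 2 h. Of the 138 probe sets lower at all of 23, 14 and 8 h, 74.6% were still lost at 2 h and 11.6% back. Of the 637 lower at 8 h only, 38% were still lost and 23.2% back. Among rises, the 256 present at all of 23, 14 and 8 h were split between 41.8% still gained and 45.3% back. Rises seen at 14 h but no longer at 8 h numbered 496, of which 60.3% were back at 2 h and 11.5% were again 4-fold above the early arrays. Rises at 8 h only numbered 760, of which 42% were still gained and 30% back.

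**Figure D4:**
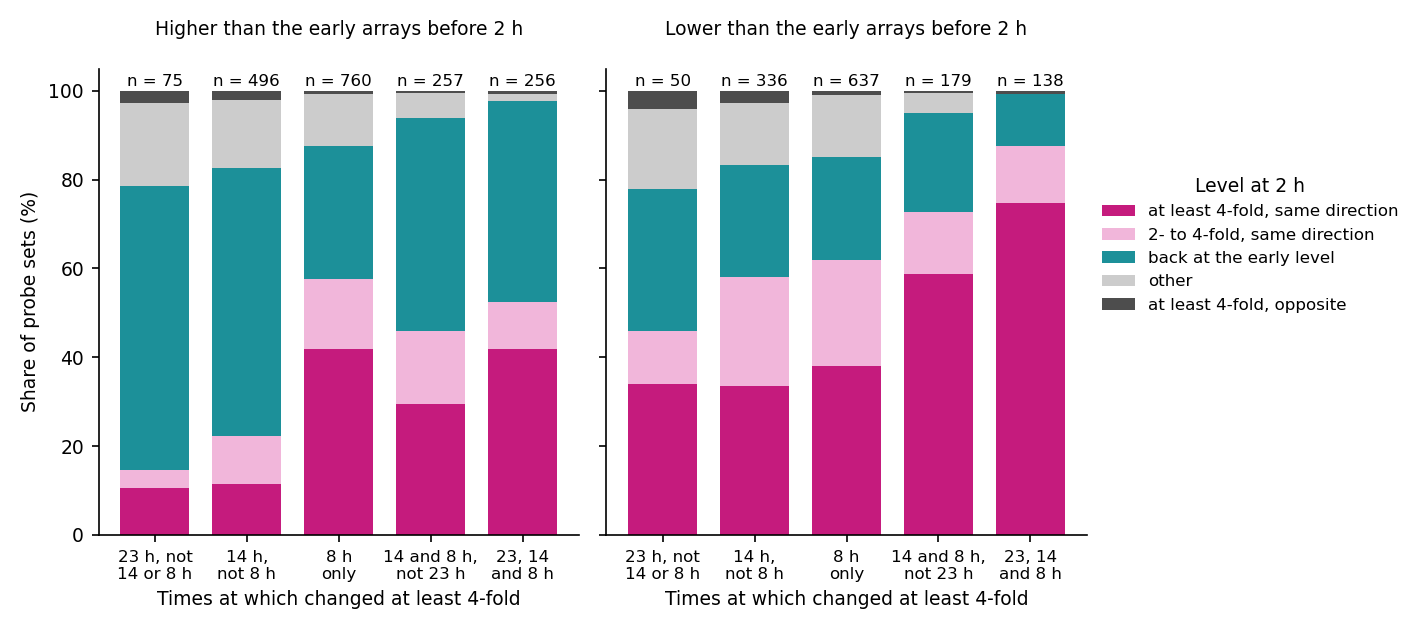
Level at 2 h of probe sets that had been at least 4-fold above (left) or below (right) the early arrays before, as a share (%) of each group, by the times at which they were changed. Probe sets changed at 23 and 8 h but not at 14 h (12 above, 21 below) are not drawn, and "other" holds levels under 2-fold from the early range, or past it in the opposite direction by under 4-fold, that did not meet the definition of a return. The share kept is 74.6% for falls seen at all of 23, 14 and 8 h and 41.8% for such rises.

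Single probe sets show the span of these courses. By a set rule, the probe sets given are those with the full 6 probes and the largest gap to the nearest early array within each course. Probe set K_OLAT0000S00016617 has the largest gap among gains that appeared at 2 h alone. Its intensity was 64, 31 and 33 in the 47, 35 and 32 h arrays, 60, 20 and 42 in the 23, 14 and 8 h arrays, and 35853 in the 2 h array. The first 6 values lay below the filter threshold, an intensity of 75.8, so that the probe set was kept through its 2 h value alone and its fold change is not given.

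Probe set OLAT0001S00034528 has the largest gap among gains present from 23 h onward. Its early intensities were 26, 33 and 37. Those of the 23, 14 and 8 h arrays were 13231, 30025 and 41638, and the 2 h array gave 26473. The early values lay below the filter threshold, all 4 later arrays were far above them, and the 2 h value was below the 14 and 8 h values.

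Probe set K_OLAT0000S00022520 is the largest loss first seen at 2 h. It had intensities of 17952, 21034 and 19693 in the early arrays, 12172, 12303 and 4921 in the 23, 14 and 8 h arrays, and 120 in the 2 h array. The level had already gone down by 8 h, to 3.65-fold below the lowest early array, and at 2 h was 150-fold below that array. Probe set K_OLAT0000S00003018 was lost at every time from 23 h, with 9432, 11170 and 13333 in the early arrays and then 89, 83, 180 and 42 in time order. Its 2 h value lay below the filter threshold, so its fold change is not given.

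Among returns after a rise, the probe set with the highest peak relative to the early arrays had 33, 27 and 39 in the early arrays. It had 737, 23141 and 9514 in the 23, 14 and 8 h arrays, and 30 in the 2 h array. The early and 2 h values all lay below the filter threshold, so the return shows only that the level was low again. Among returns after a fall, the probe set with the deepest trough relative to the early arrays had 3651, 4726 and 2441 in the early arrays. It had 2290, 29 and 519 in the 3 arrays between and 9146 in the 2 h array. Its 2 h value was 1.94-fold above the highest early array, just within the 2-fold tolerance of a return. Each of these courses rests on 1 probe set in 7 single arrays.

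**Figure D5:**
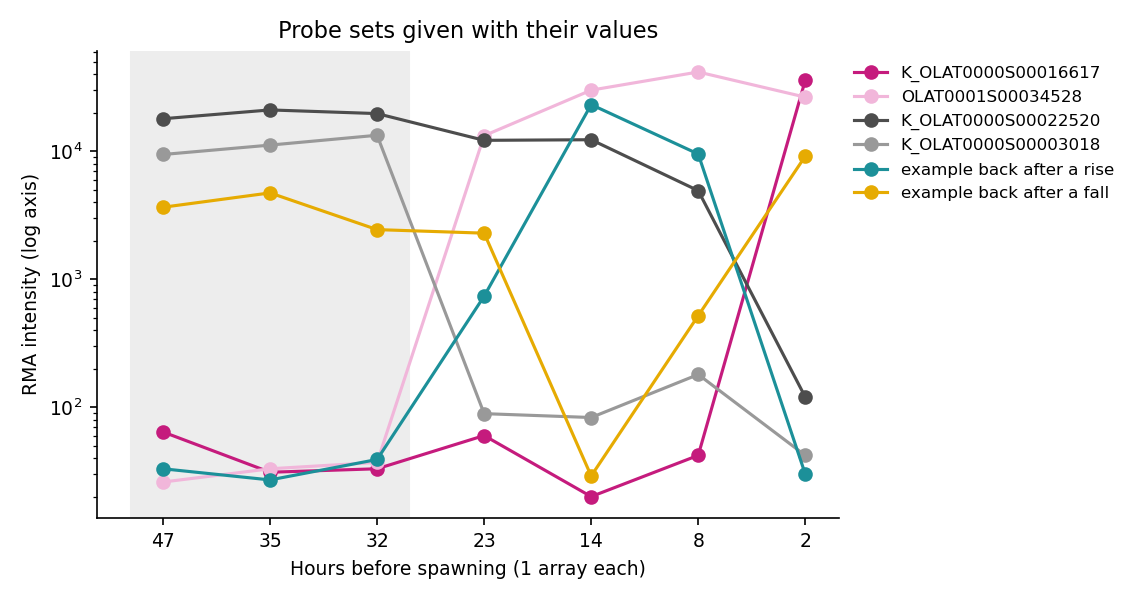
RMA intensity (log axis) of the 4 named probe sets by hours before spawning, with 1 array per time and the early arrays shaded. Also drawn are the return with the highest peak and the return with the deepest trough, each relative to the early arrays. K_OLAT0000S00016617 stays at 20 to 64 until 8 h and is at 35853 at 2 h, while the example back after a rise goes from 23141 at 14 h to 30 at 2 h.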

How the data were processed

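RNA of medaka follicles was hybridised to 1-colour NimbleGen arrays (Cy3), with 1 array for each of 7 times. The authors deposited RMA expression values as intensities on a linear scale, per the file headers. The submitters' processing notes also name RMA, with version and settings not given in the sources used here. Probe sets held 1 to 6 probes by the same files (6 in 99.3% of those kept). The number of arrays limits the precision.

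Intensities were put on the log2 scale without an offset. Probe sets were filtered and classed as defined in the text with Python 3.11.15, pandas 2.3.3 and numpy 2.4.6. The classing was also run on simulated data with planted changes far past the 4-fold limit. That run does not bear on changes near the limit. The members and lists were chosen with earlier results of these data known. The rule for named probe sets was the largest gap to the nearest early array among those first changed at 2 h and among those changed at 23, 14, 8 and 2 h. Planned gene lists and cell type markers needed gene symbols and were not applied. No test was run. Alternatives were the fold limit, filter, normalization, offset, times, early reference, array-number series, probes per probe set, definition of a return and leaving out each array but 2 h.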

Additional observations from a re-analysis of the deposited data

How the results depend on the processing

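Counts are given as gained, lost, back after a rise, back after a fall, gained first at 2 h, lost first at 2 h, gained throughout and lost throughout. The times of the series table gave 160, 139, 1325, 666, 78, 43, 15 and 4. A 2-fold limit gave 3871, 3879, 1470, 701, 2319, 1839, 292 and 459, and an 8-fold limit 808, 438, 398, 104, 516, 239, 42 and 38. At both limits a return still needed a 4-fold move from the peak or trough. The 50th percentile filter gave 676, 678, 297, 126 and 400 for the first 5 and 33 lost throughout. The 6-digit arrays alone gave 2222 lost, 541 and 183 back, 1794 and 1445 first at 2 h, and 212 and 382 throughout; fewer early arrays make the limit easier to pass. The median of the early arrays gave 1869 lost, 874 lost first at 2 h, and 174 and 224 throughout. An offset of 64 gave 139 back after a fall, and a return strictly inside the early range 347 and 119 back. Leaving out 1 early array gave 1717 to 1886 gained and 1324 to 1447 lost. The 23, 14 and 8 h arrays do not enter these classes, which stay at 1575 and 1142 without any of them. Leaving out 1 array of the early or intervening times gave 580 to 927 back after a rise and 153 to 375 back after a fall. It gave 1011 to 1322 gained and 564 to 789 lost first at 2 h, and 112 to 183 gained and 118 to 208 lost throughout. The counts moved by over 1.5 times without the 8 h array (153 back after a fall), the 23 h array (183 gained and 208 lost throughout) and the 32 h array (166 lost throughout). Leaving out an array also loosens or tightens the definitions themselves. All other counts stayed within 1.5 times of those reported. Quantile normalization and centring shared 97.8% and 96.2% of the gained and 98.6% and 99.1% of the lost probe sets. They shared 98.7% and 97.9% of those back after a rise and 92.8% and 85.3% of those back after a fall. The offset of 64 shared 86.4% of gained, 70.6% of lost, 83.2% of back after a rise and 45% of back after a fall. The 6-digit arrays alone shared 54.1% of back after a rise and 39.7% of back after a fall, and by construction all gained and lost. Low intensities bear on both gains and losses, since 21% of gained probe sets had an early mean, and 30% of lost ones a 2 h value, at or below the filter threshold. No paired analysis was possible because each time has 1 array.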
